A study of Mus musculus with 6 samples.

Results

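The transcripts of the mouse mitochondrial genome were described in tumour cells with and without a knockout of Npm1. They are the 37 genes that the deposited table of 54532 genes places on chromosome MT: 13 protein-coding genes, 2 ribosomal RNA genes and 22 tRNA genes. The libraries were made from poly-A RNA of tumour cells depleted of CD45-positive cells, taken from MC38 tumours grown under the skin, with 3 libraries from Npm1 knockout tumour cells (made with CRISPR/Cas9) and 3 from wild-type tumour cells. MC38 is a mouse colon cancer line, and both kinds of tumour grew in wild type C57BL/6 mice. CD45 marks leukocytes and was used with microbeads, so other host cells of the tumour could remain. The labels do not say how many knockout clones there were, whether tumours were pooled, or whether each library stands for its own animal. The p-values therefore rest on library-to-library spread alone, which may be technical.

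The mitochondrial genome is a small circle that is read from both strands into long precursors. The tRNAs lie between the messenger and ribosomal RNAs, and their excision frees the neighbouring transcripts, most of which then receive a short poly-A tail. The 13 protein-coding genes, each called a messenger here, all encode subunits of the respiratory chain and ATP synthase. The remaining subunits and the whole machinery for copying, transcribing and processing this genome come from the nucleus. For several messengers the tail also completes the stop codon. The coding sequences of mt-Cytb, mt-Co3 and mt-Nd4 leave a remainder of 1 base after division by 3 and end in a single T, shown here in capitals at the end of the last 30 bases of each, since these 3 messengers recur below (RNA-sense strand, GENCODE vM21 on GRCm38, at MT:15259-15288, MT:9361-9390 and MT:11515-11544, plus strand).
mt-Cytb: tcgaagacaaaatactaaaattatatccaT
mt-Co3: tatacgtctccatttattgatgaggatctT
mt-Nd4: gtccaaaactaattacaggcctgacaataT

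The targeted gene did not separate the groups. Npm1 was measured at 191, 159 and 128 FPKM in the knockout libraries, against 234, 169 and 195 FPKM in the wild-type libraries (FPKM is a fragment count scaled by gene length and library total). Its difference was -0.33 on the log2(FPKM + 1) scale (SE 0.197, limma adjusted p = 0.268), so its level does not check the labels. The libraries held 16917778 to 18662688 fragments, recovered as whole numbers from FPKM and gene length. Nuclear genes differed between libraries with transcript length: Spearman's rho across genes between length and a library's deviation was -0.580, -0.554 and 0.281 in knockout replicates 1 to 3, against 0.568, 0.235 and 0.139 in wild-type replicates 1 to 3. The members are shorter than most tested nuclear genes (1824 bases or less, against a median of 3088) and poorer in GC (17.1 to 44.9%, against a median of 50.04%), so values that removal of this trend moved by over 1.5 times are given beside the main ones for the messengers and ribosomal RNAs with a mean of at least 5 FPKM.

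Fragments of the mitochondrial genome made up 1.13, 0.608 and 0.709% of all fragments in knockout replicates 1 to 3, against 0.717, 0.630 and 0.720% in wild-type replicates 1 to 3. Knockout replicate 1 stood far above the other 5 libraries, and the other 2 knockout libraries lay below or within the wild-type range, so the groups overlapped. The 95% Wilson intervals, which cover counting error only, were 1.122 to 1.132% for knockout replicate 1 and 0.604 to 0.612% for knockout replicate 2. The means were 0.815 ± 0.275% in the knockout and 0.689 ± 0.0511% in wild type (SD, n = 3 each). Their difference of 0.125 percentage points turned to -0.0308 when knockout replicate 1 was left out. Protein-coding members carried 96.4 to 98.6% of the mitochondrial fragments in each library, and the ribosomal RNAs 1.25 to 3.43%.

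**Figure D1:**
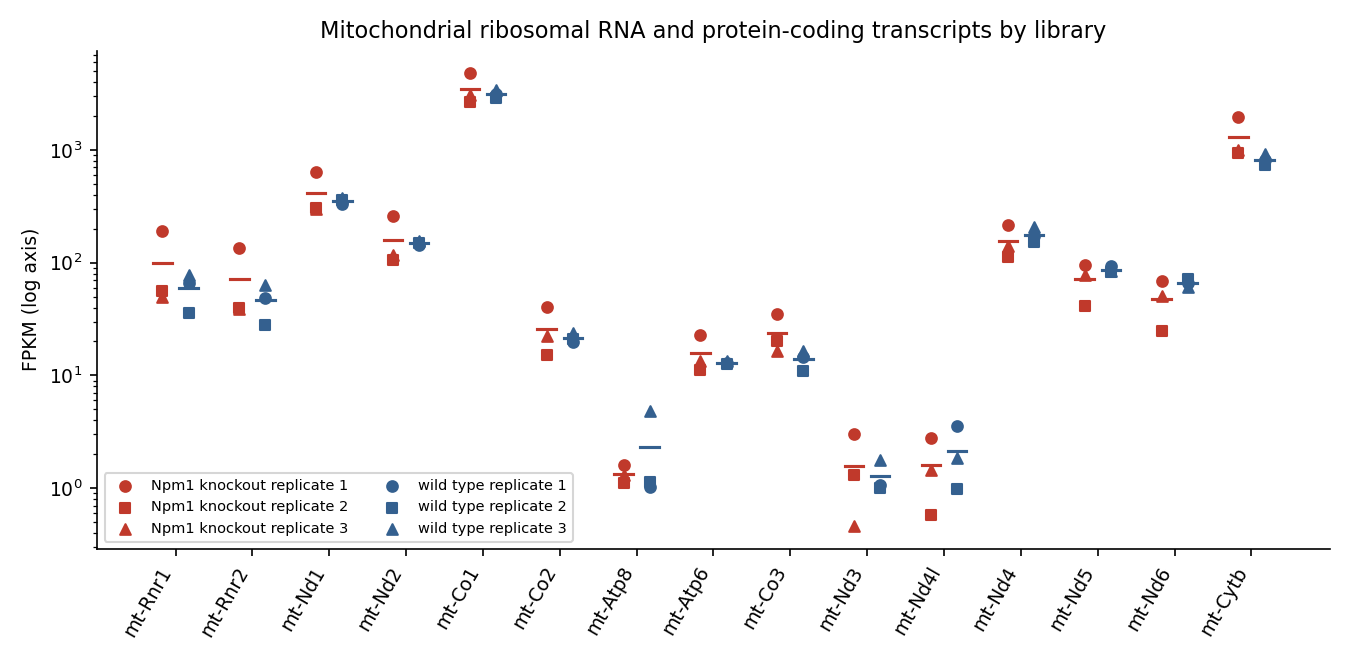
Level of the 2 ribosomal RNAs and 13 messengers in each library, in the order of the genome (FPKM on a log axis). Points are libraries, knockout left of wild type in each pair, and bars are group means. Knockout replicate 1 (red circles) is the highest library for most transcripts, and mt-Co1 and mt-Cytb stand far above mt-Atp8, mt-Nd3 and mt-Nd4l.

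The tested members lay on both sides of 0 between knockout and wild type. Of the 37 genes, 9 had no fragment in any library and 12, all of them tRNA genes, were below the filter of a mean of 1 FPKM, which left 25 tested. Of these, 0 were called higher and 2 lower in the knockout by limma at an adjusted p under 0.05, over 11287 genes of which 14.2% were called (5.91% higher and 8.3% lower). At an unadjusted p under 0.05 there were 3 of the 25, where 3740 of the 11287 genes were. Limma-voom on the recovered fragments called 0 members, with 3 at an unadjusted p under 0.05, where 3837 of the 11287 genes were. Of the 2, mt-Ts2 passed the filter only through the wild-type libraries, where it was high. The median log2 difference of the tested members was 0.08, with 14 above 0 and 11 below, against a median of 0.02 over all tested genes. The groups failed to overlap for 3 of the 25 members (1 higher, 2 lower), where 35.6% of all tested genes did so.

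Knockout replicate 1 was the highest library for most members. Of the 16 members with a mean of at least 5 FPKM, 15 were highest in knockout replicate 1, while 27.0% of all 7111 genes at that level were. The level in knockout replicate 1 was 1.26 to 3.34 times the mean of the other 5 libraries, with a median of 1.92. Knockout replicate 2, whose nuclear genes followed transcript length almost as closely, had the lowest mitochondrial share of the 6 libraries. The part of the length trend in the excess of knockout replicate 1 was not tested. Without knockout replicate 1 the members' median difference was -0.30, with 4 of 25 above 0 and 0 called, and with the length and GC trend removed it was -0.38, with 7 of 25 above 0 and 0 called. With both, a combination added after the data were seen, the median was -0.59, with 1 of 25 above 0 and 0 called. At an unadjusted p under 0.05 there were 13 of the 25, where 1922 of 11269 tested genes were. The medians over all tested genes in these fits were 0.03, 0.01 and 0.01, in the same order. The direction of the members as a group therefore depended on this library and on the trend. The part of RNA quality or handling in the high library was not tested. In bulk libraries, fewer mitochondrial transcripts per cell and fewer cells that are rich in them cannot be told apart.

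**Figure D2:**
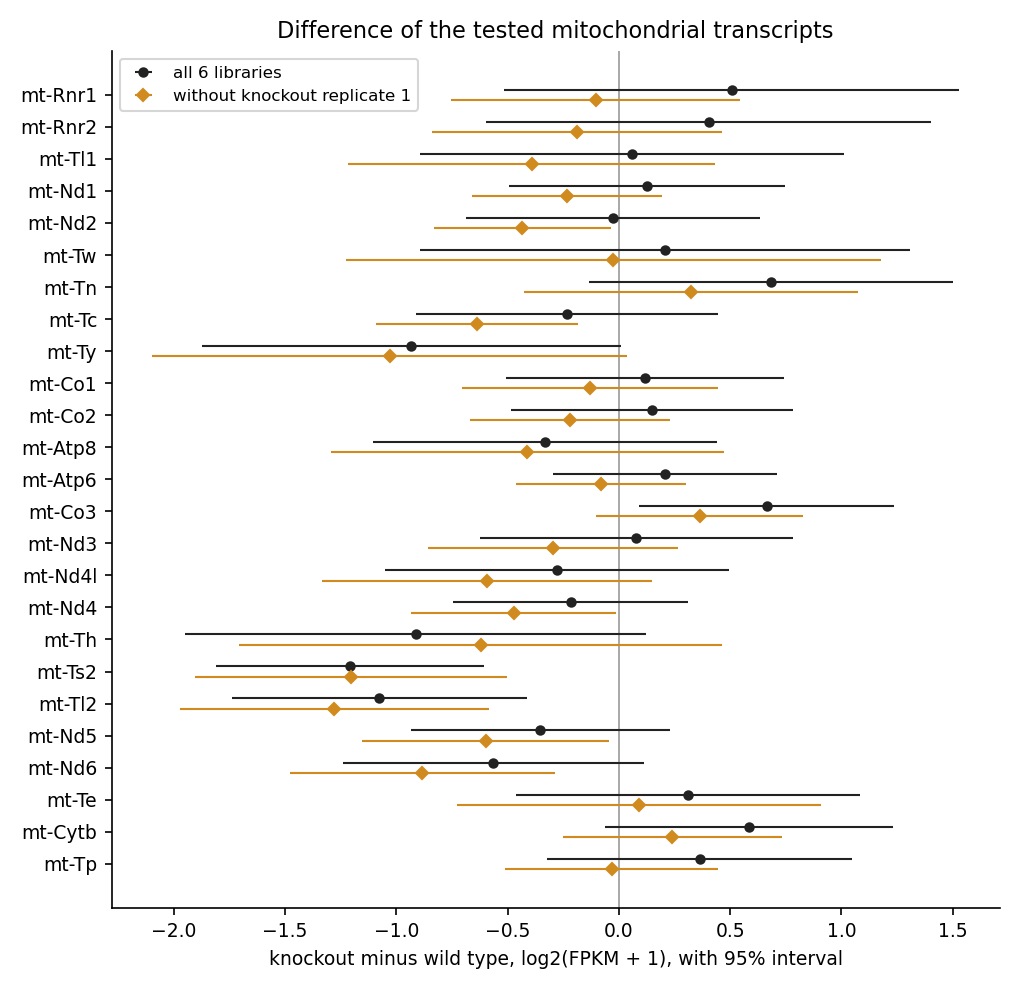
Difference between Npm1 knockout and wild type for the 25 tested mitochondrial transcripts, in log2(FPKM + 1) with limma's 95% interval, in the order of the genome (black circles, all 6 libraries; orange diamonds, without knockout replicate 1). Leaving out that library moves most points to the left, and the intervals of all 6 libraries include 0 for all but mt-Co3, mt-Ts2 and mt-Tl2.

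The 2 ribosomal RNAs, the cores of the small and large mitochondrial ribosomal subunits, both varied widely between libraries. mt-Rnr1 (small subunit, ENSMUSG00000064337, MT:70-1024) had 190.0, 56.2 and 49.4 FPKM in the knockout, against 65.5, 35.7 and 77.7 FPKM in wild type. mt-Rnr2 (large subunit, ENSMUSG00000064339, MT:1094-2675) had 135, 39.4 and 38.5 FPKM in the knockout, against 48.8, 28.1 and 63.9 FPKM in wild type. In both, knockout replicate 1 was highest, wild-type replicate 2 lowest, and the other knockout libraries lay inside the wild-type range. Their log2 differences of 0.51 (SE 0.460) and 0.40 (SE 0.449) did not pass (limma adjusted p = 0.462 and 0.553). Without knockout replicate 1 they were -0.10 and -0.19, and after removal of the length and GC trend 0.04 and -0.06. The ratio of mt-Rnr2 to mt-Rnr1, which no library scaling can move, was 0.712, 0.701 and 0.780 in the knockout, against 0.746, 0.786 and 0.823 in wild type. This ratio held within a narrow band while the levels ranged widely, and its log2 difference of -0.10 gave p = 0.2 in an exact two-sided permutation test, where 3 against 3 libraries cannot go below 0.1.

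Of the messengers, 7 encode subunits of complex I, the NADH dehydrogenase at the entry of the respiratory chain, and 0 of them passed the test. mt-Nd1 (ENSMUSG00000064341) had 636, 306 and 297 FPKM in the knockout, against 331, 361 and 372 FPKM in wild type. mt-Nd2 (ENSMUSG00000064345) had 260, 105 and 116 FPKM in the knockout, against 143, 148 and 157 FPKM in wild type. For both, knockout replicate 1 was above and the other knockout libraries below every wild-type library, with log2 differences of 0.13 (SE 0.278, limma adjusted p = 0.774) and -0.02 (SE 0.297, limma adjusted p = 0.963). After removal of the length and GC trend these were -0.39 and -0.49. mt-Nd4 (ENSMUSG00000064363) had 216, 113 and 141 FPKM in the knockout, against 172, 153 and 206 FPKM in wild type. mt-Nd5 (ENSMUSG00000064367) had 95.3, 41.7 and 77.3 FPKM in the knockout, against 92.8, 82.5 and 84.8 FPKM in wild type. In these 2 the excess of knockout replicate 1 over wild type was small, and the differences were -0.22 (SE 0.237, limma adjusted p = 0.545) and -0.35 (SE 0.261, limma adjusted p = 0.365). After removal of the trend they were -0.69 and -0.86 (limma adjusted p = 0.0925 and 0.0826).

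mt-Nd6 is the only messenger that the table places on the minus strand (ENSMUSG00000064368, MT:13552-14070). It had 69.3, 24.7 and 50.2 FPKM in the knockout, against 66.1, 71.7 and 60.3 FPKM in wild type. Here knockout replicate 1 lay inside the wild-type range and the other 2 knockout libraries below it, with a log2 difference of -0.56 (SE 0.304, limma adjusted p = 0.222). It stayed below 0 in every alternative listed in the methods, from -0.89 (with the trend removed) to -0.16, and passed in none of them (limma adjusted p = 0.112 to 0.689). The table lists mt-Nd6 and mt-Nd5 with 14 shared bases on opposite strands, and the strand setting of the counting is not given in the sources used here, so fragments there cannot be told apart. Their ratio was 0.728, 0.592 and 0.649 in the knockout, against 0.712, 0.870 and 0.711 in wild type, an overlap (log2 difference -0.22, exact two-sided permutation p = 0.3). mt-Nd3 and mt-Nd4l, the short subunits, were near the filter, at 2.99, 1.30 and 0.459 FPKM in the knockout against 1.06, 0.9998 and 1.77 FPKM in wild type for mt-Nd3. mt-Nd4l had 2.77, 0.573 and 1.43 FPKM in the knockout, against 3.55, 0.976 and 1.87 FPKM in wild type. Neither rests on more than 20 fragments in any library.

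mt-Cytb, which encodes cytochrome b, the catalytic subunit of complex III, was the one messenger whose groups did not overlap. It had 1976, 943 and 993 FPKM in the knockout, against 818, 734 and 915 FPKM in wild type (ENSMUSG00000064370, MT:14145-15288). All 3 knockout libraries were higher than all wild-type ones, though knockout replicate 2 exceeded the highest wild-type library only slightly. The means were 1304 ± 582 FPKM in the knockout and 822 ± 90.8 FPKM in wild type (SD, n = 3 each), and the log2 difference of 0.58 (SE 0.290) did not pass (limma adjusted p = 0.189, 0.104 to 0.880 over the alternatives). It was 0.24 without knockout replicate 1 and 0.07 with the length and GC trend removed, and -0.20 with both.

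Complex IV, cytochrome c oxidase, takes its 3 catalytic core subunits from this genome. mt-Co1 was the most abundant member, at 4782, 2650 and 3094 FPKM in the knockout, against 3151, 2878 and 3392 FPKM in wild type (ENSMUSG00000064351, MT:5328-6872). Apart from knockout replicate 1 the libraries lay close together, with a log2 difference of 0.12 (SE 0.281, limma adjusted p = 0.793), which was -0.38 after trend removal. mt-Co2 had 40.4, 15.1 and 22.3 FPKM in the knockout, against 19.9, 21.2 and 23.7 FPKM in wild type, a log2 difference of 0.15 (limma adjusted p = 0.74), or -0.35 with the trend removed. mt-Co3 had 34.9, 20.2 and 16.3 FPKM in the knockout, against 14.7, 10.9 and 16.6 FPKM in wild type. The mt-Co3 groups overlapped by a single library, and its log2 difference of 0.66 (SE 0.257) did not pass (limma adjusted p = 0.104). It passed in limma without knockout replicate 3 (0.89, adjusted p = 0.0337), and it was 0.36 without knockout replicate 1 (adjusted p = 0.344), 0.16 after removal of the length and GC trend (adjusted p = 0.666) and -0.07 with both. Complex V, the ATP synthase, takes mt-Atp6 and mt-Atp8, which share 43 bases. mt-Atp6 had 22.9, 11.1 and 13.5 FPKM in the knockout, against 12.9, 12.6 and 13.4 FPKM in wild type, a log2 difference of 0.21 (limma adjusted p = 0.547), or -0.24 with the trend removed. mt-Atp8 had 1.61, 1.11 and 1.31 FPKM in the knockout, against 1.03, 1.14 and 4.83 FPKM in wild type, where a single wild-type library was high on 16 fragments.

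The levels of the messengers, compared per length, spanned a mean of 3324 FPKM for mt-Co1 to 1.43 FPKM for mt-Nd3. These are levels per gene. On the same strand, mt-Atp8 and mt-Atp6 share 43 bases and mt-Nd4l and mt-Nd4 share 7. The genes of such a pair need not stand for separate RNAs. In order they were mt-Co1, mt-Cytb, mt-Nd1, mt-Nd4, mt-Nd2, mt-Nd5, mt-Nd6, mt-Co2, mt-Co3, mt-Atp6, mt-Nd4l, mt-Atp8 and mt-Nd3. The ranges over libraries overlapped between mt-Nd4 and mt-Nd2, between mt-Nd5 and mt-Nd6, from mt-Nd6 down to mt-Atp6, and among the last 3. Within libraries, however, mt-Nd6 was below mt-Nd5 and above mt-Co2 in all 6. The sequence that each messenger shares with nuclear genes was set beside these levels. Every window of 100 bases of each member was looked up, on the RNA-sense strand, in all annotated transcripts of other genes (GENCODE vM21, GRCm38). The shared portion was 97.6 to 99.9% of windows for mt-Co2, mt-Atp6, mt-Co3, mt-Nd3 and mt-Nd4l, which had mean levels of 1.43 to 23.8 FPKM. It was 60.8% for mt-Nd4 and 30.8% for mt-Co1, and at most 3.2% for mt-Cytb, mt-Nd1, mt-Nd2, mt-Nd5, mt-Nd6 and mt-Atp8. Of these last 6, mt-Atp8 was at 1.84 FPKM and the others at 57.0 to 1063 FPKM. The portions depended on the window. With 50 bases they were 51.1% for mt-Co1, 8.19% for mt-Nd2 and 7.61% for mt-Nd5, and with 150 bases 23.6% for mt-Co1. The 5 messengers that are shared nearly whole were thus all low, while the partly shared mt-Co1 and mt-Nd4 were among the 4 highest.

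**Figure D3:**
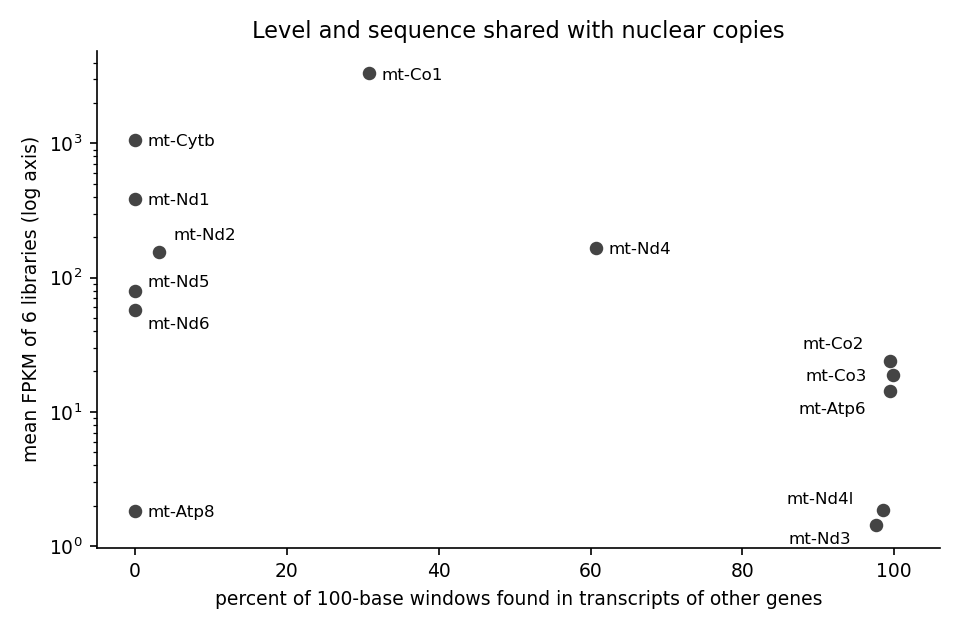
Mean level of the 13 messengers over the 6 libraries (FPKM, log axis) against the percentage of their 100-base windows that also occur in annotated transcripts of other genes. The 5 messengers at the right edge have means of 23.8 FPKM or less, and mt-Atp8 is the only low one at the left edge.

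The copies are 7 unprocessed pseudogenes in 1 block of chromosome 1 (chr1:24611535-24616197, minus strand, 4663 bases), which follow each other in the same order as the mitochondrial genes. The distance between consecutive copies was compared with the one between the matching parts of the mitochondrial genes. These distances were equal in 5 of 6 cases and differed by 1 base in the other. Gm28661 is identical to 681 of the 684 bases of mt-Co2, Gm10925 to 678 of the 681 of mt-Atp6 and Gm28437 to 783 of the 784 of mt-Co3. Gm28439 is identical to the first 876 of 1378 bases of mt-Nd4. The space of 233 bases between Gm28661 and Gm10925, which no annotated transcript covers, equals that between the matching parts of mt-Co2 and mt-Atp6, where most of mt-Atp8 lies. Its sequence was not used here, so mt-Atp8 was not compared with it.

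The starts of 3 pairs show how alike these sequences are. Differing bases are in capitals, the member stands above its copy, and the stretches are at MT:7013-7072 and chr1:24615506-24615565, MT:9459-9518 and chr1:24613060-24613119, and MT:6381-6440 and chr1:24616138-24616197 (plus strand for the members, minus for the copies).
mt-Co2: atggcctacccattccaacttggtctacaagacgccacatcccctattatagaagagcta
Gm28661: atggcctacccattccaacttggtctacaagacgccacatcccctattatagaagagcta
mt-Nd3: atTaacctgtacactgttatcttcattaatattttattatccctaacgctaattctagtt
Gm28438: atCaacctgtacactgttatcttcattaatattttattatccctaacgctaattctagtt
mt-Co1: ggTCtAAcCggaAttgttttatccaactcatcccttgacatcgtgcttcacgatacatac
Gm29216: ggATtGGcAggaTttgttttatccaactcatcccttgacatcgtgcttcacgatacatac
With positions counted from 1 at the 5′ end of the member, mt-Nd3 and its copy differ by T3C over 345 bases. The last 492 bases of mt-Co1 and Gm29216 differ by T1056A, C1057T, A1059G, A1060G, C1062A and A1066T, all near the start of the shared part.

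Where member and copy are identical over nearly their whole length, the deposited levels of the 2 were of the same order. Gm10925 had 19.3, 10.7 and 11.6 FPKM in the knockout, against 13.8, 11.03 and 14.8 FPKM in wild type, and mt-Atp6 was 0.904 to 1.19 times that level in each library. Gm28437 had 25.8, 15.6 and 11.5 FPKM in the knockout, against 10.8, 9.92 and 13.3 FPKM in wild type, and mt-Co3 was 1.10 to 1.42 times its level. Gm28661 had 22.9, 11.5 and 10.4 FPKM in the knockout, against 9.44, 11.8 and 14.7 FPKM in wild type, and mt-Co2 was 1.31 to 2.14 times its level. These 3 copies and Gm29216 were highest in knockout replicate 1, as their mitochondrial counterparts were. Gm28439 and Gm28438 were highest in wild-type replicate 1, and Gm10222 in wild-type replicate 3. mt-Nd3 was lower than its copy, at 0.0850 to 0.384 times the level of Gm28438. Of the 7 copies, 0 passed the test between knockout and wild type (limma adjusted p = 0.0694 for the lowest, Gm28438). How the authors assigned fragments that match several places is not given in the sources used here, so the levels of the 5 messengers that are copied nearly whole, and part of those of mt-Co1 and mt-Nd4, are uncertain. The remaining copies, Gm29216, Gm10222 and Gm28439, averaged 15.4, 1.79 and 1.34 FPKM, and of the annotated matches elsewhere Gm13340 on chromosome 2 alone reached a mean of at least 1 FPKM (1.22 FPKM).

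**Figure D4:**
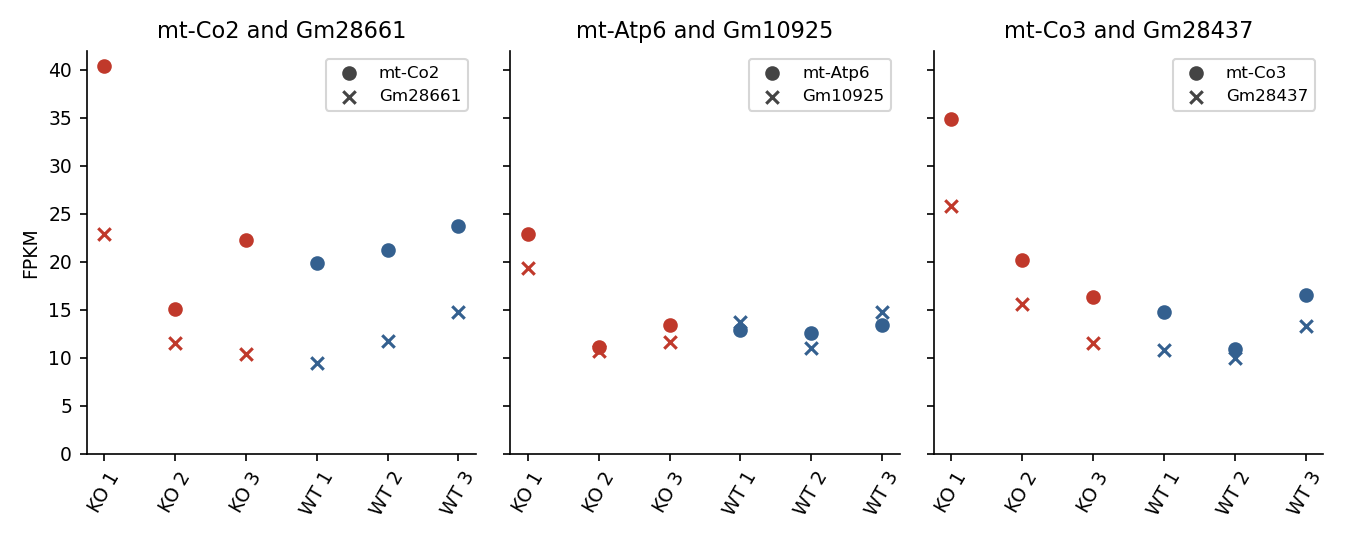
Level in FPKM of 3 messengers (circles) and their copies on chromosome 1 (crosses) in each library, knockout libraries in red at the left and wild-type libraries in blue at the right. In every panel both series are highest in knockout replicate 1, and mt-Atp6 and Gm10925 nearly coincide.

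Shares within the mitochondrial genome do not depend on how the libraries were scaled. Of the 25 tested members, 6 had shares of the mitochondrial fragments that did not overlap between the groups (2 higher, 4 lower), while 20.1% of all tested genes divided by the same mitochondrial total did so (3.77% higher, 16.3% lower). The members' count lay near that of all genes, but the members are part of that total and the other genes are not. The share over all genes is therefore no strict yardstick, and the 4 messengers among the 6 are given as a description. mt-Cytb took 19.6, 18.1 and 16.6% of mitochondrial fragments in the knockout, against 13.6, 13.3 and 14.0% in wild type. Its ratio to mt-Co1 was 0.413, 0.356 and 0.321 in the knockout and 0.260, 0.255 and 0.270 in wild type, a log2 difference of 0.47 (exact two-sided permutation p = 0.1, the smallest possible). mt-Nd4 took 2.59, 2.60 and 2.85% of mitochondrial fragments in the knockout, against 3.45, 3.35 and 3.78% in wild type, and its ratio to mt-Co1 differed by -0.33 (exact two-sided permutation p = 0.1). mt-Nd6 took 0.312, 0.214 and 0.381% in the knockout, against 0.497, 0.591 and 0.417% in wild type. mt-Co3, the other higher one, took 0.237, 0.265 and 0.187% in the knockout, against 0.167, 0.136 and 0.173% in wild type. The 2 other lower ones were the tRNAs mt-Tl2 and mt-Ts2, and mt-Ts2 passed the filter only through its wild-type libraries. The ratios to mt-Co1 were chosen after these shares had been seen, and mt-Co1 held 64.1 to 70.6% of the mitochondrial fragments. Their separation was largely fixed by that choice, so the permutation results for them are no separate support.

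**Figure D5:**
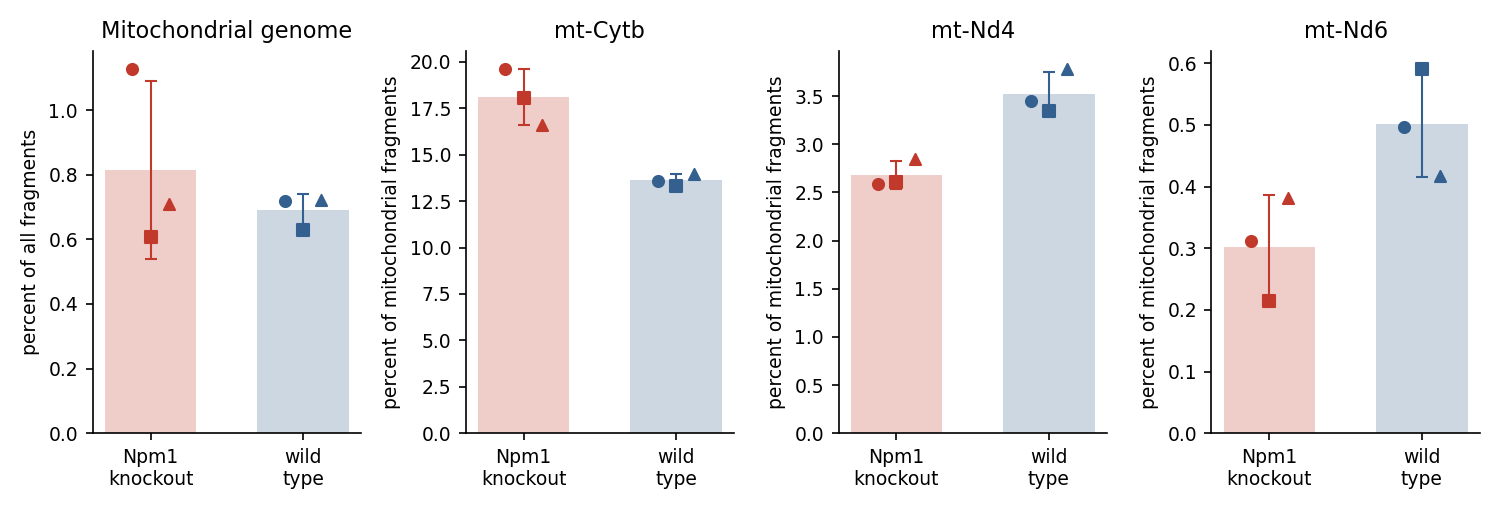
Left, percent of all fragments that fall on the mitochondrial genome; the other panels, percent of mitochondrial fragments taken by mt-Cytb, mt-Nd4 and mt-Nd6 (points are libraries, bars group means, whiskers SD, n = 3 each; knockout left). The groups overlap in the left panel and do not in the other 3.

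The 22 tRNA genes, 59 to 75 bases long, yielded 971 fragments in all libraries together, of 805503 for the whole genome. Poly-A libraries capture few tRNAs, and fragments at these short genes can come from precursors or neighbours. No fragment was counted for 9 of them (mt-Tf, mt-Ti, mt-Tq, mt-Ts1, mt-Td, mt-Tk, mt-Tg, mt-Tr and mt-Tt), and over the 106531326 fragments of all libraries a count of 0 allows a share of up to 2.82e-06%. Of the 22, 10 passed the filter. The 8 tRNA genes on the minus strand held 861 of the fragments and the 14 on the plus strand 110. The 5 minus-strand tRNAs that passed the filter are shown because they carry most of the tRNA signal, on the RNA-sense strand with the anticodon in capitals. They are the tRNAs for proline, cysteine, glutamate, asparagine and tyrosine, at MT:15356-15422, MT:5192-5257, MT:14071-14139, MT:5089-5159 and MT:5260-5326.
mt-Tp: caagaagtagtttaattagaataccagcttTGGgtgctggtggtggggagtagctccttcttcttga
mt-Tc: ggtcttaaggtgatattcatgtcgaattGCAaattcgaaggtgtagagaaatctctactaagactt
mt-Te: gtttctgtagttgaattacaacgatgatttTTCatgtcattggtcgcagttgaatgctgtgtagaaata
mt-Tn: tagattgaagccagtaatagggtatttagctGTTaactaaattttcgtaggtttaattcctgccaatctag
mt-Ty: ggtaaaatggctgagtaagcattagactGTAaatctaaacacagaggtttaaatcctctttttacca

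mt-Tp, which lies at the end of the coding part of the circle, had 143, 52.5 and 73.9 FPKM in the knockout, against 67.6, 71.8 and 53.3 FPKM in wild type. mt-Tc had 39.8, 16.3 and 16.9 FPKM in the knockout, against 20.7, 31.6 and 27.98 FPKM in wild type. Both followed the mitochondrial messengers in being highest in knockout replicate 1, and neither passed (limma adjusted p = 0.431 and 0.618). mt-Te had 9.52, 4.11 and 7.72 FPKM in the knockout, against 6.11, 8.40 and 2.68 FPKM in wild type. mt-Tn had 10.8, 5.59 and 3.75 FPKM in the knockout, against 4.45, 1.63 and 5.20 FPKM in wild type. mt-Ty had 3.27, 0.846 and 5.56 FPKM in the knockout, against 8.65, 3.46 and 7.35 FPKM in wild type. These 3 rest on at most 14 fragments in a library, and their groups overlapped.

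The 2 members called by the test were tRNAs of the plus strand that sit next to each other between mt-Nd4 and mt-Nd5 and share 1 base, mt-Ts2 for serine (MT:11613-11671) and mt-Tl2 for leucine (MT:11671-11741). Both are shown with the anticodon in capitals.
mt-Ts2: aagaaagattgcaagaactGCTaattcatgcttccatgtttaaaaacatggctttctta
mt-Tl2: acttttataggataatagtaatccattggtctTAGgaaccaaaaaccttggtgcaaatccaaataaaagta
mt-Ts2 was counted 1 time in each of the 3 knockout libraries, against 7, 3 and 2 times in the wild-type libraries. In FPKM that is 0.928, 0.961 and 0.903 in the knockout, against 6.25, 2.95 and 2.09 in wild type. The log2 difference of -1.21 (SE 0.270) passed in limma (adjusted p = 0.0238, 0.0202 to 0.146 over the alternatives), and the counts per depth gave a ratio of 0.242 with an exact 95% counting interval of 0.0439 to 0.897. mt-Tl2 was counted 4, 1 and 4 times in the knockout libraries, against 9, 7 and 5 times in wild type. Its log2 difference of -1.08 (SE 0.297) also passed in limma (adjusted p = 0.0406, 0.0252 to 0.184 over the alternatives), with a count ratio of 0.415 and an exact 95% counting interval of 0.167 to 0.946. The groups did not overlap for either gene, and the 2 calls rest on 15 and 30 fragments in all, and mt-Ts2 passed the filter only through its wild-type libraries, so its call describes these counts and is no support for a difference. After removal of the length and GC trend the differences were -1.18 for mt-Ts2 and -1.02 for mt-Tl2, and in limma-voom on the fragments -1.48 and -1.27, about as large as or larger than in the main test, but none of these passed. The mt-Ts2 call was lost when knockout replicate 1, knockout replicate 2 or wild-type replicate 3 was omitted, and the mt-Tl2 call when any library but knockout replicate 3 was omitted. The other plus-strand tRNAs tested did not pass and overlapped between the groups. mt-Th passed in limma without knockout replicate 3 (-1.50, adjusted p = 0.0173), the only knockout library with mt-Th fragments. Like mt-Ts2, it passed the filter only through its wild-type libraries (mean 2.03 FPKM, against 0.795 FPKM in the knockout). That pass is therefore no support for a difference. mt-Tl1 had 8.03, 2.27 and 2.84 FPKM in the knockout, against 7.72, 2.32 and 2.46 FPKM in wild type. mt-Tw had 3.27, 1.69 and 1.59 FPKM in the knockout, against 3.14, 0.0 and 3.67 FPKM in wild type. mt-Th had 0.0, 0.0 and 2.38 FPKM in the knockout, against 0.786, 3.46 and 1.84 FPKM in wild type.

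The nuclear partners of these transcripts were set beside them. Of 82 tested nuclear subunits of complexes I to V, 13 rose in the knockout and 0 fell, with a median log2 difference of 0.53 and 80 above 0, where 5.91% of all tested genes were called higher, 8.3% lower, and their median was 0.02. They took 1.27, 1.30 and 0.988% of fragments in the knockout, against 0.785, 0.943 and 0.967% in wild type, so knockout replicates 1 and 2 were alike here. In complex I, Ndufa1 had 114, 110 and 71.3 FPKM in the knockout, against 46.8, 45.7 and 60.2 FPKM in wild type (log2 0.92, SE 0.206, limma adjusted p = 0.0238). The other complex I subunits called were Ndufs5 (0.83), Ndufa5 (0.82), Ndufb3 (0.77) and Ndufs4 (0.58). Complex III added Uqcr11 (0.91) and Uqcrb (0.74), complex IV Cox7b (0.79), Cox7a1 (0.71), Cox7a2 (0.64) and Cox5b (0.71), and complex V Atp5e (0.85) and Atp5j (0.70). Complex II, the only one with no mitochondrially encoded subunit, had 0 of 4 called, with Sdhd at 0.43, Sdhb at 0.34 and Sdhc at 0.30.

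The 13 calls among nuclear subunits depended on the libraries kept and on the trend with length. Leaving out knockout replicate 3 raised them to 56 and leaving out wild-type replicate 1 left 1, while leaving out any of the other 4 libraries left 0. In those 4 fits the median stayed at 0.40 to 0.60, with 79 to 81 of 82 above 0. The replicate block left 1. With the length and GC trend removed 0 were called, and the median was 0.23. The difference between nuclear and mitochondrial subunits was not tested.

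In the nuclear machinery that maintains and reads the mitochondrial genome, 2 of 16 replication genes and 1 of 9 transcription genes were called, where 14.2% of all tested genes were. Polg, the catalytic subunit of the mitochondrial DNA polymerase, had 4.76, 5.35 and 6.36 FPKM in the knockout, against 9.25, 8.61 and 9.95 FPKM in wild type (log2 -0.67, SE 0.150, limma adjusted p = 0.0237), and its difference shrank to -0.10 after trend removal. Ssbp1, the mitochondrial single-stranded DNA-binding protein, rose by 0.59 (SE 0.163, limma adjusted p = 0.0408), or 0.33 with the trend removed. Tfb2m, the factor that opens the promoter for the mitochondrial RNA polymerase, had 9.78, 8.23 and 9.31 FPKM in the knockout, against 5.65, 4.30 and 5.18 FPKM in wild type (log2 0.74, SE 0.150, limma adjusted p = 0.0184), or 0.40 with the trend removed. The groups of these 3 genes did not overlap, where 35.6% of all tested genes did not. The other 8 transcription genes did not pass, and the list's median was 0.41.

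Of 30 tested genes that process, stabilise or degrade mitochondrial RNA, 0 were called in either direction, and their median was 0.03. The 3 with the smallest p were Elac2, the nuclease that cuts the 3′ ends of mitochondrial tRNAs, at -0.45 (limma adjusted p = 0.0578), Pnpt1, a mitochondrial exoribonuclease, at 0.56 (limma adjusted p = 0.0593), and Trnt1, which adds the CCA end to tRNAs, at 0.48 (limma adjusted p = 0.0776). Of 11 tested nuclear regulators of mitochondrial genes, 2 fell and 0 rose, where 8.3% of all tested genes were called lower and 5.91% higher. Pprc1, a coactivator of the PGC-1 family, had 7.93, 9.59 and 11.9 FPKM in the knockout, against 26.6, 16.1 and 21.4 FPKM in wild type (log2 -1.04, SE 0.204, limma adjusted p = 0.0174), or -0.55 with the trend removed. Hcfc1, a cofactor of transcription, changed by -0.91 (SE 0.196, limma adjusted p = 0.0212), or -0.22 with the trend removed. Among 21 chaperone and stress genes of mitochondria, with a median of 0.12, 3 rose and 1 fell, beside the same shares over all genes. The chaperonins Hspd1 (0.74) and Hspe1 (0.82) and the protease Yme1l1 (0.63) rose and the protease Lonp1 (-0.54) fell. With the trend removed these were 0.59, 0.43, 0.27 and -0.14. Over all these nuclear lists, 18 of 168 tested genes rose and 4 fell. Both directions together lay near the 14.2% called over all genes. Taken by direction they did not, since 5.91% of all tested genes were called higher and 8.3% lower. Of the 18, 13 were the nuclear subunits of complexes I to V. In either direction, 0 passed when knockout replicate 1, knockout replicate 2 or wild-type replicate 3 was omitted or the length and GC trend was removed. When knockout replicate 3 was omitted, 66 rose and 6 fell.

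The nuclear genes whose levels followed the mean of the 13 messengers most closely over the 6 libraries were Rnf122 (Pearson r = 0.978), Gm10925 (r = 0.976), Aldh3a1 (r = 0.963), Gm29216 (r = 0.936) and Map2k1 (r = 0.935). They were picked from all tested nuclear genes for this likeness, the points share their libraries, and 2 of the 5 are copies of mitochondrial genes. Aldh3a1, an aldehyde dehydrogenase, had 119.8, 48.1 and 65.5 FPKM in the knockout, against 57.7, 59.7 and 82.0 FPKM in wild type.

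Markers of other cells of the tumour were checked in the same libraries. Ptprc, which encodes CD45, had 0 to 4 fragments in any library, and the 12 leukocyte markers summed to 2.43, 4.12 and 2.45 FPKM in the knockout, against 3.55, 1.84 and 6.33 FPKM in wild type. The 5 erythroid markers summed to 39.6, 81.2 and 12.8 FPKM in the knockout, against 22.5, 8.01 and 1.46 FPKM in wild type, highest in knockout replicate 2, the library with the lowest mitochondrial share, and 0 of the 3 tested were called. Skeletal muscle markers summed to 0.909 to 1.60 FPKM, adipocyte markers to 0.0939 to 0.498 FPKM and endothelial markers to 0.810 to 4.48 FPKM, with 0 genes of these 3 lists past the filter. The 7 fibroblast markers summed to 1499, 1371 and 1558 FPKM in the knockout, against 1061, 1358 and 1599 FPKM in wild type. Of the 7, Dcn (1.28) and Postn (1.03) were called higher and Col1a1 (-1.88) lower in limma. Over all tested genes, 5.91% were called higher and 8.3% lower. These marker calls were lost without knockout replicate 1 (limma adjusted p = 0.0534, 0.0992 and 0.0848). They were also lost with the length and GC trend removed (limma adjusted p = 0.071, 0.3345 and 0.147). The part of other cells of the tumour in the mitochondrial values was not tested.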

How the data were processed

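Poly-A RNA of CD45-negative MC38 tumour cells was measured in 6 libraries, 3 a group. The authors deposited FPKM per gene, and the submitters' processing notes name CASAVA 1.8, HISAT2 2.0.5, featureCounts 1.5.0-p3, DESeq2 1.20.0 and GRCm38. Read length, strand setting and the treatment of fragments with several matches stand in none of the sources used. Whole fragments were recovered from FPKM and gene length (tolerance 0.001 fragments). Values of log2(FPKM + 1) for the 11287 genes averaging 1 FPKM or more were tested in limma 3.58.1 (R 4.3.3, mean trend, Benjamini-Hochberg over all tested genes, threshold 0.05). The same script was tested on simulated data. Ratios were tested by exact two-sided permutation. Alternatives were another pseudocount (0.1), no filter or 5 FPKM, TPM, quantile scaling, totals without mitochondrial genes, no mean trend, limma-voom, a replicate block, removal of each library's trend with length and GC, and leaving out each library. Every messenger, ribosomal RNA and tested tRNA is named; of each nuclear list, the called genes (up to 6 by smallest p) or else the 3 with the smallest p; the 5 nuclear genes most like the messengers; and nuclear copies with a mean of at least 1 FPKM. The members and lists were chosen with earlier results of these data known. All 37 members have the same coordinates in GENCODE vM21, from which the sequences come.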

Additional observations from a re-analysis of the deposited data

How the results depend on the processing

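Over all genes, 1604 were called, against 961 with TPM (26.1% higher in the knockout, against 41.6%; median of all genes -0.08), 822 with the replicate block, 248 with the length and GC trend removed and 0 without a filter (limma, 4543 at an unadjusted p under 0.05). Leaving out 1 library gave 7 (without wild-type replicate 3) to 2805 (without knockout replicate 3); it was 88 without knockout replicate 1, 209 without knockout replicate 2 and 890 without wild-type replicate 2. With trend removal and knockout replicate 1 left out, added after the data were seen, 6 were called. Of the members, 2 were called, against 1 with a pseudocount of 0.1 or with TPM, and 0 with no filter, at 5 FPKM, with limma-voom, with the trend removed and with the added combination; leaving out 1 library gave 0 to 5. The cause was not tested.

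No called member changed sign. Among the others, quantile scaling turned mt-Co1 (-0.35), mt-Nd1 (-0.0877) and mt-Nd3 (-0.0689), and TPM turned mt-Tl1 (-0.0397) and mt-Nd3 (-0.0502). Trend removal turned mt-Co1 (-0.38), mt-Nd1 (-0.39), mt-Rnr2 (-0.0588), mt-Co2 (-0.35), mt-Atp6 (-0.24), mt-Tl1 (-0.19) and mt-Nd3 (-0.14). Leaving out 1 library gave log2 ranges across 0 for mt-Co1 (-0.13 to 0.30), mt-Nd1 (-0.23 to 0.32), mt-Nd2 (-0.43 to 0.22), mt-Rnr1 (-0.10 to 0.86), mt-Rnr2 (-0.19 to 0.71), mt-Co2 (-0.22 to 0.46), mt-Atp6 (-0.0799 to 0.41), mt-Atp8 (-0.60 to 0.16), mt-Nd3 (-0.30 to 0.43), mt-Nd4l (-0.59 to 0.0361), mt-Tp (-0.0324 to 0.68), mt-Te (-0.0737 to 0.61), mt-Tl1 (-0.39 to 0.51) and mt-Tw (-0.51 to 0.61).

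The replicate block called mt-Ts2 and mt-Ty, and mt-Tl2 missed (limma adjusted p = 0.0511). Deviations of same-numbered libraries correlated at -0.185, 0.268 and -0.368, which gives no sign of pairing by number. With 3 libraries a group these values cannot settle it, and the labels do not say what the numbers stand for. For the ratios of mt-Rnr2 to mt-Rnr1 and of mt-Nd6 to mt-Nd5, the log2 difference, knockout minus wild type, stayed below 0 in all alternatives run. tRNA values are limited by their few fragments.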
